A study of Mus musculus with 4 samples.

Results

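The cells described here were CD8 T cells in mouse prostate tumours, 490 of 28364 cells kept from 4 tumours by single-cell RNA sequencing. A cell was counted as a CD8 T cell when it held at least 1 UMI of Cd8a or Cd8b1 and at least 1 UMI of Cd3e, Cd3d or Cd3g. UMIs (unique molecular identifiers) count captured RNA molecules. The cells were thus selected on measured counts of these genes, and the levels of these genes in them are given as a description. A cell also had to carry no more than 3 UMIs over the myeloid genes C1qa, C1qb, S100a8 and S100a9, and no more than 2 over the epithelial keratins Krt8 and Krt18. Cells were kept at 500 or more UMIs, 300 or more genes and at most 20% mitochondrial UMIs, which left 28364 of 33061 barcodes.

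The tumours came from mice with a conditional model of prostate cancer, in which Cre is driven by the probasin promoter (PB-Cre) in prostate epithelium. PSp mice carried the mutant SpopF133V and 1 further engineered allele that both genotypes share. PCSp mice had the same alleles and in addition a floxed Chd1 (Chd1L/L). All carried the mTmG reporter, all had been castrated by surgery at 9 months of age, and the prostate tumours were taken 1 month later. There were 2 mice of each genotype, and no tumour from an intact mouse was analysed here. Recombination in T cells was not measured here. Values for the 4 mice are given throughout in the order PSp mouse 1, PSp mouse 2, PCSp mouse 1, PCSp mouse 2.

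CD8 T cells recognise peptides on MHC class I with an alpha-beta T cell receptor, and the CD8 coreceptor is a dimer of a CD8 alpha and a CD8 beta chain or of a pair of alpha chains. Once activated they kill by releasing perforin and granzymes and by Fas ligand, and they secrete interferon gamma and chemokines. Repeated exposure to antigen is known to bring up inhibitory receptors such as PD-1 (Pdcd1) and the factor Tox, while naive and memory cells keep Tcf7, Il7r and Ccr7. Cells that stay in epithelium often carry the integrins CD103 (Itgae) and CD49a (Itga1) and the retention receptor CD69.

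The CD8 T cells numbered 77, 71, 186 and 156 in the 4 mice. Their median depth was 5441, 5282, 5070.5 and 3537.5 UMIs per cell, with 1798, 1781, 1711 and 1379 genes. PCSp mouse 2 was the shallowest library, also over all kept cells, whose medians were 4329.5, 4221.5, 4188 and 2566 UMIs. No CD8 T cell shared its barcode with a CD8 T cell of another library, and any 2 libraries shared 11 to 27 barcodes over all barcodes. Of the 490 cells, 37 held a single Cd8a or Cd8b1 UMI and 453 held 2 or more, and 3 held a single Cd3 UMI. Just outside the limits, 36 kept cells had a Cd8a or Cd8b1 UMI and no Cd3 UMI. Keratin UMIs numbered 2 in 62 cells, the most allowed, and 19 otherwise fitting cells were left out with 3. Myeloid UMIs numbered 3 in 2 cells, and no cell was left out at exactly 4.

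The cells were checked against markers that the rule did not use. Ptprc, the pan-leukocyte gene CD45, was detected in 476 of the 490. A constant region of the alpha-beta T cell receptor (Trac, Trbc1 or Trbc2) was detected in 485. A single UMI of any of them was enough, so this count does not show which receptor a cell made. Nkg7, a protein of cytotoxic granules, stood at 1920.1, 1790.3, 2323 and 2155 CPM (UMIs of the gene per 1000000 UMIs, over the summed cells of 1 mouse), and after thinning each cell to 1000 UMIs a Nkg7 UMI was found in 83.5% of CD8 T cells, 18.2% of other T cells and 0.1% of epithelial cells. Gzmb, granzyme B, stood at 877, 1319, 825 and 855 CPM. A granzyme UMI (Gzma, Gzmb or Gzmk) was present in 364 cells, so 126 cells that met the rule showed none at this depth.

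Chd1, the chromatin remodeller whose floxed allele separates the genotypes, was measured in every class first. In CD8 T cells it stood at 72.2, 82.4, 148 and 136 CPM, higher in both PCSp mice (log2 fold change 0.84, SE 0.20, adjusted p = 0.161, not past the threshold; adjusted p = 0.0339 with no filter on low counts). In cells of an epithelial gate (at least 5 UMIs over Krt8 and Krt18, no Ptprc or Cd3 UMI) it stood at 90.4, 76.5, 59.4 and 55.1 CPM. These are 3' counts, which may come from outside the deleted part of the gene, so they check nothing about the deletion.

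Most CD8 T cells carried both chains of the coreceptor. Both Cd8a and Cd8b1 UMIs were found in 372 cells, or 80.5%, 78.9%, 77.4% and 70.5% by mouse. Cd8a alone was found in 76 cells, 15.6%, 16.9%, 15.6% and 14.7%, and Cd8b1 alone in 42, 3.90%, 4.23%, 6.99% and 14.7%. The share with both was lowest in PCSp mouse 2, the shallowest library, and the part of depth in that was not tested. A Cd4 UMI was seen in 5 cells and a Trdc UMI (delta chain constant region) in 14. A gamma chain constant region UMI was seen in 290 cells, 32.5%, 70.4%, 76.3% and 46.8% by mouse. Tcrg-C2 stood at 112, 184, 283 and 146 CPM and the variable gene Trgv2 at 142, 212, 308 and 141 CPM in the same cells, and Trdc at 28.1, 16.5, 14.1 and 32.6 CPM.

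CD8 T cells made up a larger share of the PCSp tumours than of the PSp tumours, with mice of the 2 genotypes not overlapping. They were 1.41%, 1.14%, 2.25% and 1.85% of kept cells, with exact 95% binomial intervals of 1.12 to 1.76, 0.894 to 1.44, 1.94 to 2.60 and 1.57 to 2.15, which cover counting error only. The means were 1.28% ± 0.191 in PSp and 2.05% ± 0.289 in PCSp (SD, n = 2 mice each), a ratio of 1.60. An exact two-sided permutation test gave p = 0.333, the smallest value that 2 against 2 mice can give. More CD8 T cells in a tumour and better recovery of them from it cannot be told apart.

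Among T cells the direction was alike. Of the cells with a Cd3 UMI, 46.7%, 38.0%, 51.7% and 54.7% were CD8 T cells, with means of 42.3% ± 6.15 in PSp and 53.2% ± 2.17 in PCSp (SD, n = 2 each, exact permutation p = 0.333). Among cells with a Ptprc UMI, CD8 T cells were 6.27%, 4.29%, 8.88% and 5.83%, so PCSp mouse 2 lay below PSp mouse 1 (exact permutation p = 0.667 over n = 2 mice each). T cells without a Cd8a or Cd8b1 UMI were 1.62%, 1.87%, 2.11% and 1.53% of kept cells, with overlapping genotypes. NK cells were 0.422%, 0.403%, 0.533% and 0.308% of kept cells, also overlapping.

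**Figure D1:**
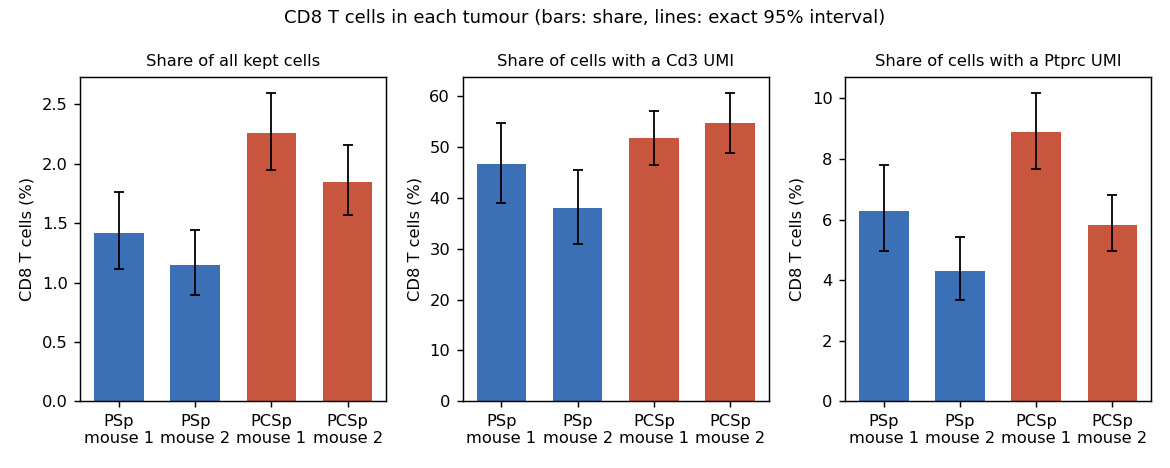
CD8 T cells as a percentage of all kept cells, of cells with a Cd3 UMI and of cells with a Ptprc UMI, 1 bar per tumour, with exact 95% binomial intervals as lines. Both PCSp bars stand above both PSp bars in the left and middle panels (2.25% and 1.85% against 1.41% and 1.14% of kept cells), while in the right panel PCSp mouse 2 at 5.83% lies below PSp mouse 1 at 6.27%.

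The cytotoxic products were present in all 4 tumours. Gzma (granzyme A) stood at 1152, 1119, 1176 and 709 CPM, lowest in PCSp mouse 2, and Gzmk (granzyme K) at 159, 129.6, 221 and 172 CPM. Prf1, perforin, lay within a narrow range of 60.2, 58.9, 55.6 and 61.8 CPM. The T cell chemokine Ccl5 stood at 7694, 8271, 10052 and 8549.9 CPM. Interferon gamma (Ifng) stood at 261, 367, 268 and 228 CPM, highest in PSp mouse 2. Ccl4, an inflammatory chemokine, and Xcl1, which draws cross-presenting dendritic cells, stood at 205, 834, 680.2 and 539 and 529.7, 952, 662 and 400.0 CPM, and PSp mouse 2 was highest for each. Il2 stood at 0, 23.6, 4.04 and 3.43 CPM.

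Genes of inhibitory receptors were found in all 4 tumours. Pdcd1 stood at 291, 249.7, 426 and 419 CPM and Tox at 247, 181, 256 and 227 CPM. Lag3, an inhibitory receptor for MHC class II, stood at 82.3, 51.8, 74.8 and 84.1 CPM, and the ectonucleotidase gene Entpd1 (CD39) at 68.2, 47.1, 61.6 and 79.0 CPM. Havcr2 (TIM-3) stood at 16.1, 2.36, 2.02 and 12.0 CPM, with PSp mouse 1 and PCSp mouse 2 above the other mice, and Tigit at 18.1, 14.1, 13.1 and 17.2 CPM. Genes of tissue retention were also present: Cd69 at 403, 466, 342 and 355 CPM, Cxcr6 at 159, 266, 248 and 221 CPM, Itgae at 132, 188, 220.3 and 179 CPM and Itga1 at 140.4, 132, 168 and 137 CPM. Ccr7, the lymph node homing receptor of recirculating cells, stood at 30.1, 16.5, 3.03 and 10.3 CPM. Klrg1, a receptor of short-lived effector cells, stood at 2.01, 2.36, 1.01 and 13.7 CPM, with most of its few UMIs in PCSp mouse 2. The glucocorticoid receptor gene Nr3c1 stood at 277, 344, 317 and 318 CPM.

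Detection of single genes per cell was compared at equal depth, after thinning 486 cells with enough UMIs to 1000 each (77, 69, 185 and 155 by mouse). A Pdcd1 UMI was found in 27.3%, 14.5%, 32.4% and 30.3% of cells (57.1%, 50.7%, 62.9% and 58.3% at full depth), above in both PCSp mice, with exact permutation p = 0.333 over n = 2 mice each. A Gzmk UMI was found in 13.0%, 14.5%, 21.6% and 14.8% (46.8%, 35.2%, 55.9% and 36.5% at full depth, where the genotypes overlap). A Fcer1g UMI was found in 9.09%, 18.8%, 4.86% and 5.81%, lower in both PCSp mice. In epithelial and fibroblast gates the same thinning gave 0.05% and 0% for Pdcd1, 0% and 0% for Gzmk and 1.75% and 1.89% for Fcer1g, all below the shares in CD8 T cells. Before thinning, median depths by mouse were 12667 to 18299.5 UMIs in the epithelial gate, above the CD8 T cells in each mouse, and 4999, 5590, 4688 and 4183 in the fibroblast gate, below the CD8 T cells in PSp mouse 1 and PCSp mouse 1.

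Other shares overlapped between genotypes at equal depth. Gzmb UMIs were found in 18.2%, 42.0%, 31.9% and 31.0% of thinned cells, and Ifng UMIs in 18.2%, 18.8%, 18.4% and 13.5%. Itgae UMIs were found in 7.79%, 17.4%, 18.4% and 10.3%, and Tcf7 UMIs in 10.4%, 7.25%, 4.32% and 8.39%. The 2 PSp mice lay at opposite ends for Gzmb and apart for Itgae. Klf2 shares of 15.6%, 11.6%, 7.57% and 8.39% could not be read this way, since 8.95% of thinned epithelial cells also held a Klf2 UMI.

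Within each mouse, Gzmb detection went with Itgae detection. Of cells with an Itgae UMI, 77.3%, 71.9%, 73.1% and 70.2% also held a Gzmb UMI, against 34.5%, 48.7%, 38.9% and 29.4% of cells without. Cells with Itgae were deeper, at median 6804, 6159.5, 5644.5 and 3887 UMIs against 4819, 4503, 4664 and 3370, and the part of depth in the difference was not tested. Gzma was seen in 33.3%, 21.4%, 32.3% and 23.1% of cells with a Gzmb UMI and in 9.76%, 10.3%, 1.15% and 3.30% of cells without, at median depths of 6002, 5523, 5057 and 3693 against 5277, 5281, 5084 and 3441 UMIs. Gzmk behaved otherwise: it was seen in 47.2%, 47.6%, 51.5% and 27.7% of cells with Gzmb and in 46.3%, 17.2%, 60.9% and 42.9% of cells without, with no common direction over the mice.

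CD8 T cells were then set against the 507 other T cells of the same tumours (88, 116, 174 and 129), which had a Cd3 UMI and no Cd8a or Cd8b1 UMI. Summed UMIs per mouse and class were compared within mice by edgeR's quasi-likelihood F-test, with an adjusted p (Benjamini-Hochberg) under 0.05 as the threshold. Of 5648 genes tested, 801 passed (14.2%), 338 higher in CD8 T cells (5.98%) and 463 lower (8.2%), leaving out genes of the rule. The other T cells were a mixed class: 94 held a single Cd3 UMI, a Cd4 UMI was seen in 29, 26, 42 and 21, and their summed fibroblast markers (10 genes, none at 0) stood at 2160, 1695, 5080 and 6897 CPM against 138, 1510, 1132 and 390 in CD8 T cells. The part of that RNA in the genes lower in CD8 T cells was not tested.

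Most of the cytotoxic granule genes tested were higher in CD8 T cells. Of 13 cytotoxic granule genes tested, 9 passed higher and 3 lower, with a median log2 fold change of 1.10 against 0.00 over all genes tested. Gzmk stood at 159, 129.6, 221 and 172 CPM against 5.89, 29.7, 16.1 and 12.7 in other T cells (log2 fold change 3.42, SE 0.30, adjusted p = 7.25e-05), above them in every mouse. Ifng stood at 33.4, 23.1, 73.2 and 44.5 CPM in other T cells (log2 fold change 2.69, SE 0.26, adjusted p = 0.000136). Nkg7 (log2 fold change 2.58, SE 0.24, adjusted p = 0.000112) and Ccl5 (log2 fold change 2.58, SE 0.21, adjusted p = 6.16e-05) were also higher in all 4 mice. Fas ligand (Fasl) was higher by 1.44 and Prf1 by 1.82 on the log2 scale. Gzmb was higher by 1.22 (adjusted p = 0.0173), a call that was lost with DESeq2 (adjusted p = 0.0952) and without PCSp mouse 2 (0.0524). Gzma did not pass (1.19, adjusted p = 0.185), but passed higher with no filter on low counts (adjusted p = 9.38e-22), without PSp mouse 2 (0.0238), in thinned cells (0.00469) and against Cd4-positive cells (1.1e-10). It stood at 841, 1471, 69.4 and 303 CPM in other T cells, above the CD8 T cells in PSp mouse 2 and below them in the other 3 mice. With no filter the Gzma fold change was 1.23, near the main one, so that far smaller adjusted p depended on the filter. Gzmc, a granzyme encoded next to Gzmb, was lower in CD8 T cells by fit (-4.08), at 74.2, 14.1, 7.07 and 15.5 CPM against 738, 412, 2.48 and 999.8, with PCSp mouse 1 the other way round.

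Of 11 inhibitory receptor and exhaustion genes tested, 6 passed higher and 1 lower, with a median of 1.09. Pdcd1 stood at 98.2, 59.3, 37.2 and 46.6 CPM in other T cells, below CD8 T cells in each mouse (log2 fold change 2.60, SE 0.27, adjusted p = 0.000182). Cd160, a receptor for HVEM (2.94), Lag3 (2.49) and Tox (1.27) were higher on the log2 scale. Ctla4, which regulatory T cells carry in quantity, was lower (-1.06). Among transcription factors, the T-box factors Eomes (2.20) and Tbx21 (1.74) and Runx3, which silences Cd4 in this lineage (0.98), passed higher. Also higher were Themis, an adaptor of T cell receptor signalling (1.87), Klrc1, which encodes the inhibitory receptor NKG2A (1.98), and Rpa2, a single-strand DNA binding protein (2.11). Itgae was higher by 1.53. Tcrg-C2 stood at 68.7, 41.2, 47.1 and 40.2 CPM in other T cells and passed higher in CD8 T cells by 1.93.

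Genes of memory, helper, regulatory and interleukin-17 T cells were lower. Of 10 naive and central memory genes tested, none passed higher and 6 passed lower, with a median of -1.27. Il7r, the interleukin-7 receptor, stood at 128, 174, 111 and 251 CPM in CD8 T cells against 503, 532, 715 and 642 (log2 fold change -1.87, SE 0.19, adjusted p = 0.00017), lower in every mouse. S1pr1, the receptor that lets lymphocytes leave tissue, was lower by fit at -2.13. Klf2, the factor that drives S1pr1, stood at -1.24 (adjusted p = 0.0355), a call lost with DESeq2 (adjusted p = 0.221) and without PCSp mouse 1 (0.113) or PCSp mouse 2 (0.129). Lef1 stood at -1.41, and its call was lost with DESeq2 (adjusted p = 0.0910) and without PCSp mouse 1 (0.0584). All 9 helper and regulatory genes tested passed lower, among them Foxp3 (-4.65), Il2ra (-4.02), Icos (-2.03) and Il17a (-4.81). Il17a was listed at 0, 0, 2.02 and 27.5 CPM in CD8 T cells and 147, 135, 213 and 284 in other T cells. Rora (-2.11) and Ccr2 (-3.31) passed lower as well. The MHC class II genes H2-Ab1 (-4.12) and Cd74 (-4.10) were lower, beside summed dendritic cell markers (12 genes) of 2777, 1382, 635 and 1159 CPM in other T cells and 108, 70.7, 91.0 and 106 in CD8 T cells, in which Clec9a, Flt3, Cd209a and Siglech were at 0. With only Cd4-positive cells as the reference, Cd74 no longer passed (adjusted p = 0.0634).

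MHC class I and interferon response genes were among those higher in CD8 T cells. Of 12 MHC class I presentation genes tested, 8 passed higher and none lower, with a median of 0.46. Tap1, the peptide transporter, was higher by 0.72 and Nlrc5, the class I transactivator, by 0.80, and each lost its call under DESeq2 (adjusted p = 0.156 and 0.219), without PCSp mouse 1 (0.0555 and 0.104) and without PCSp mouse 2 (0.0860 and 0.0724). Tap1 lost it without PSp mouse 1 also (0.113). Of 24 interferon response genes tested, 9 passed higher and 1 lower, with a median of 0.57. Ifit1 was higher by 0.95, but it did not pass on leaving out PSp mouse 1 (adjusted p = 0.0878), PCSp mouse 1 (0.0540) or marked doublets (0.0962), or against Cd4-positive cells (0.499). Of 18 immediate early and stress genes tested, which dissociation is known to raise, none passed higher and 10 passed lower.

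**Figure D2:**
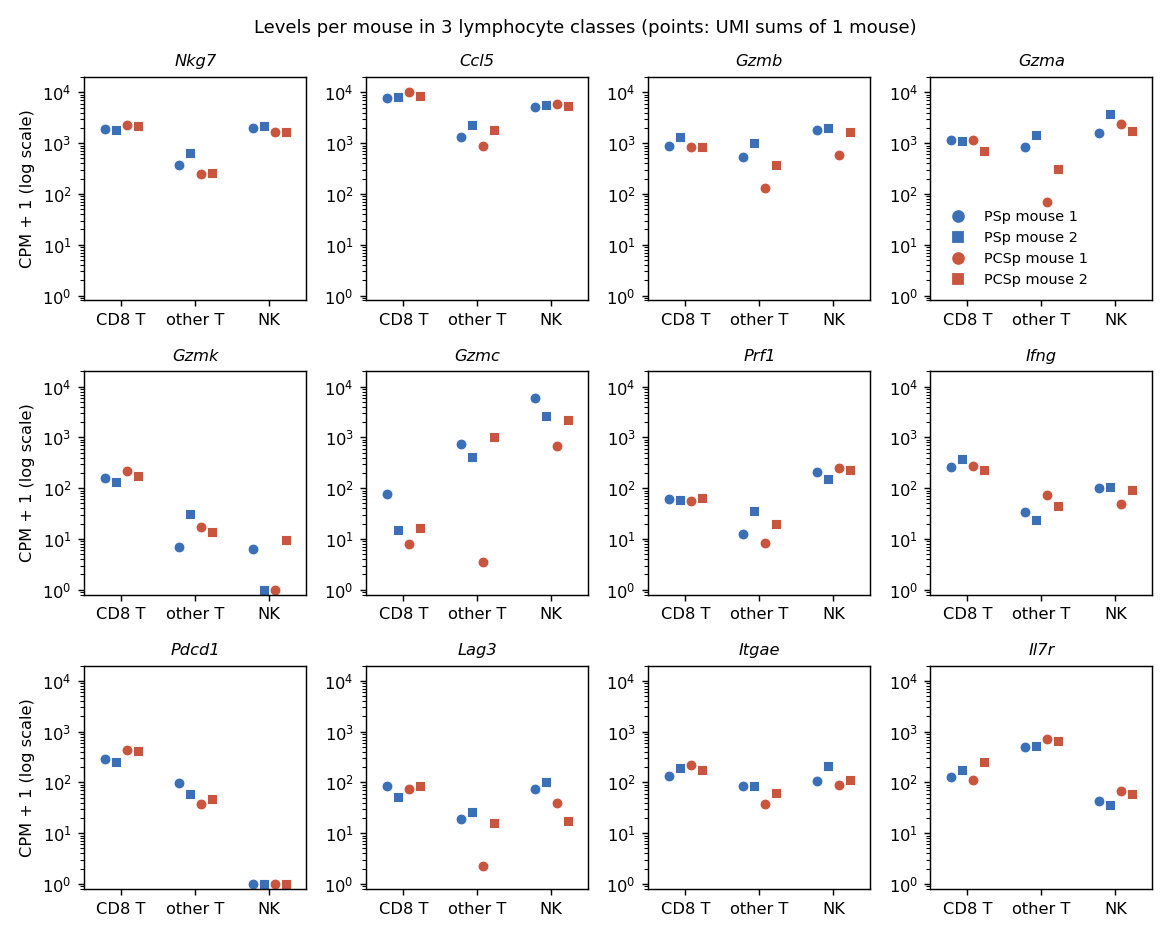
Levels of 12 genes in CD8 T cells, other T cells and NK cells, as CPM + 1 on a log axis. Each point is the summed UMIs of 1 mouse, circles for mouse 1 and squares for mouse 2, PSp in blue and PCSp in red. Pdcd1 and Gzmk stand highest in CD8 T cells in all 4 mice, Gzmc and Prf1 in NK cells in all 4, and Il7r in other T cells in all 4.

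The 118 NK cells (23, 25, 44 and 26) differed from CD8 T cells in which granzymes they held: Gzmc and Gzma were higher in NK cells and Gzmk in CD8 T cells. They were gated on at least 2 UMIs over Ncr1, Klrb1c and Klre1 and no Cd3 UMI. Of 4039 genes tested, 431 passed (10.7%), 214 higher in CD8 T cells (5.3%) and 217 lower (5.37%), leaving out genes of either gate. Gzmc stood at 74.2, 14.1, 7.07 and 15.5 CPM in CD8 T cells and 6089, 2699, 667 and 2195 in NK cells (log2 fold change -6.72, SE 0.17, adjusted p = 5.27e-13), lower in every mouse. Gzma was lower by fit at -1.09 and Prf1 at -1.82 on the log2 scale. Of 13 cytotoxic granule genes tested, 1 passed higher in CD8 T cells and 6 lower. Their median log2 fold change was -0.51, against 0.00 over all genes tested. Gzmk counted 453 UMIs in CD8 T cells and 2 in NK cells, a ratio of 64.2 between the CPM values with an exact 95% interval of 17.7 to 532 for counting error. Ifng was higher in CD8 T cells, at 261, 367, 268 and 228 against 100.4, 107, 47.9 and 91.8 CPM (log2 fold change 1.77, SE 0.21, adjusted p = 2.91e-05), and Ccl5 was higher by 0.66. The activation and residence genes Cd69 (1.82) and Cxcr6 (1.18), and Tox (1.30) and Cd160 (1.34), also passed higher.

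Genes of the T cell lineage separated the classes by counts alone. Pdcd1 had 917 UMIs in CD8 T cells and none in NK cells, at least 86.6-fold higher against a floor of 3 counts over the 4 mice. By the same floor Themis was at least 34.6-fold, Cd6, a receptor that tunes T cell activation, at least 36.8-fold, Tcrg-C2 at least 47.1-fold and Trgv2 at least 51.8-fold higher. Bcl11b, a factor of T cell commitment, was higher by 3.79. Of 20 T cell receptor signalling genes tested 17 passed higher, in cells gated for Cd3 against cells gated for its absence. In the other direction, Klra8 had 212 UMIs in NK cells and none in CD8 T cells, at least 249-fold lower in CD8 T cells, although reads of the near-identical Klra genes may be split between them. The signalling adaptors Tyrobp (-4.55) and Fcer1g (-3.56), the integrin Itgax (-5.07) and Irf8 (-4.74) passed lower, as did Xcl1 (-1.58) and Il2rb, the shared interleukin-2 and interleukin-15 receptor chain (-1.58). Of 23 interferon response genes tested, 12 passed higher in CD8 T cells and none lower, with a median of 0.88 against 0.00 over all genes. Ifi27l2a stood at 1176, 1034, 1293 and 719 CPM against 164, 231, 26.1 and 8.34 in NK cells (3.43), and Ifit1 was higher by 2.36. None of the 20 genes of this comparison followed through the alternatives lost its call in any alternative in which it was tested.

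Cells with and without a Cd8b1 UMI differed in few genes. The 414 cells with Cd8b1 had median depths of 5530, 4967, 5165 and 3606 UMIs, and the 76 without had 4615.5, 6298.5, 4121 and 3142. Of 3177 genes tested within mice, 39 passed (1.23%), 17 higher with Cd8b1 (0.535%) and 22 lower (0.692%), leaving out Cd8a and Cd8b1. The cells without Cd8b1 had more of Cd7, an immunoglobulin-family receptor of T and NK cells, and of the NK receptor adaptors Fcer1g and Tyrobp. Of 8 NK receptor genes tested, 3 passed higher without Cd8b1 and none lower. Cd7 stood at 1438, 896, 939 and 976 CPM without and 246, 209, 253 and 209 with Cd8b1 (log2 fold change -2.16, SE 0.17, adjusted p = 2.56e-07), higher without it in every mouse. Thinned cells were split anew on their thinned counts, so cells whose Cd8b1 UMIs were thinned away counted as without. In that split the Cd7 difference was -0.92 and did not pass (adjusted p = 0.0726). The same direction held in 4 of 4 mice for Fcer1g, at 945, 1140.0, 974 and 545 against 149.7, 206, 3.53 and 13.7 CPM (log2 fold change -3.88, SE 0.50, adjusted p = 0.000186), and for Tyrobp (-3.06), the other adaptor of activating NK receptors. Ikzf2, the factor Helios, was -2.26 and the motor protein gene Myo1e -2.96 on the log2 scale. Trdc stood at 183, 77.5, 85.3 and 273 CPM without and 2.34, 0, 2.36 and 0 with Cd8b1 (-6.32).

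Gzma was higher without Cd8b1, at 5358, 2180.3, 2069 and 2454 against 454, 832, 1028 and 472 CPM (log2 fold change -2.04, SE 0.26, adjusted p = 0.000186). Gzmb was -0.81 by fit (adjusted p = 0.0244), which did not pass on leaving out PSp mouse 2 (adjusted p = 0.0698), PCSp mouse 1 (0.269) or PCSp mouse 2 (0.239). In thinned cells, split anew on their thinned Cd8b1 counts, the Gzmb difference turned to 0.0091 (adjusted p = 0.992). The levels were 860.1, 1959, 1728 and 1593 CPM without and 879.5, 1146, 675 and 755 with Cd8b1, with PSp mouse 1 the exception. Xcl1 (-0.86) and Fos (-1.40) were also higher without Cd8b1, but Xcl1 did not pass on leaving out PSp mouse 1 (adjusted p = 0.0765), PCSp mouse 1 (0.0571) or PCSp mouse 2 (0.0613), and Fos did not pass in thinned cells (-0.18, adjusted p = 0.943). With Cd8b1, Ifng was higher, at 281, 455, 302 and 244 against 141, 44.3, 64.0 and 115 CPM (log2 fold change 1.90, SE 0.30, adjusted p = 0.0017), in 4 of 4 mice. Samhd1, a dNTP hydrolase that interferon induces, was higher by 1.48. In thinned cells Ifng differed by 0.42 (adjusted p = 0.794) and Samhd1 by 1.08 (0.214), and neither passed. These thinned values compare groups that are not the same cells as at full depth. Ifit1 stood at 185, 233, 86.0 and 80.0 CPM with and 14.1, 111, 28.4 and 0 without Cd8b1 (1.86), and Ifit3 was higher by 1.53. Of 23 interferon response genes tested, 3 passed higher with Cd8b1 and none lower, and all 23 fold changes lay above 0. S100a4, a calcium-binding protein of effector and memory cells (1.12), and Ctla4 (1.79) passed higher as well. The calls for Ifit1, Ifit3, Ctla4 and S100a4 were each lost without PCSp mouse 1 or without PCSp mouse 2, with adjusted p between 0.0571 and 0.347. By DESeq2, Ifit1 (adjusted p = 0.0972), Ifit3 (0.241) and Ctla4 (0.448) did not pass either. In thinned cells, split anew, S100a4 differed by 0.15 (edgeR adjusted p = 0.943), Ifit1 by 0.66 (0.794) and Xcl1 by -0.52 (0.295), and none passed.

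Stromal RNA differed between these cells too. Gsn, an actin-severing protein abundant in fibroblasts, was lower with Cd8b1 (-2.90, not past the threshold by DESeq2, adjusted p = 0.425), and the fibroblast gene Apod, chosen after its values were seen, stood at 28.2, 1605, 3676 and 14.4 CPM without and 39.8, 62.8, 219 and 29.3 with Cd8b1, high in PSp mouse 2 and PCSp mouse 1. The part of that RNA in the other differences was not tested. Leaving out PCSp mouse 1 or PCSp mouse 2 reduced the calls from 39 to 15 or 18.

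The 364 cells with a granzyme UMI and the 126 without had similar depth, at median 5471.5, 4937, 5087 and 3508 UMIs against 5277, 6036, 4822 and 3609.5. Of 3071 genes tested within mice, 35 passed (1.14%), 20 higher with a granzyme UMI (0.651%) and 15 lower (0.488%), leaving out Gzma, Gzmb and Gzmk. Division genes were higher with granzyme: of 8 cell cycle genes tested, 6 passed higher and none lower, with a median of 1.21 against 0.00 over all genes. The proliferation marker Mki67 stood at 70.4, 137, 105 and 86.9 CPM with and 30.9, 16.0, 5.64 and 27.8 without granzyme (log2 fold change 2.26, SE 0.39, adjusted p = 0.00277), higher in every mouse. Few cells held Mki67: 6, 4, 11 and 4 held it with Gzmb, and 5, 3, 5 and 9 without Gzmb. For Gzmb alone the shares had no common direction. It was seen in 54.5%, 57.1%, 68.8% and 30.8% of cells with Mki67 and 45.5%, 59.4%, 51.8% and 42.7% of cells without. The histone gene Hist1h2ap stood at 35.2, 919, 294 and 514 against 38.7, 23.9, 22.5 and 55.7 CPM (3.43), with PSp mouse 1 the exception. Stmn1, a microtubule regulator (2.19), and the topoisomerase Top2a (1.29) passed higher. Without PSp mouse 2 the calls for Mki67 (adjusted p = 0.0559), Stmn1 (0.159) and Top2a (0.159; 0.0552 without PCSp mouse 2) were lost, and the number of genes called fell from 35 to 17.

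Of 8 tissue residency genes tested, 2 passed higher with a granzyme UMI and none lower. Itgae stood at 165, 221, 245 and 206 CPM with and 38.7, 112, 107 and 117 without granzyme (log2 fold change 1.10, SE 0.21, adjusted p = 0.0082), but it did not pass once PCSp mouse 1 was left out (adjusted p = 0.0512). Itga1 (1.28) passed higher and was lost without PSp mouse 1 (adjusted p = 0.0544), PSp mouse 2 (0.185) or PCSp mouse 2 (0.0846). Ccl5 was higher in 4 of 4 mice, at 9100.5, 9866, 11000.3 and 9521 against 3681, 4461, 5711 and 6371 CPM (log2 fold change 0.93, SE 0.09, adjusted p = 9.02e-07). Cd7 (1.79), Fcer1g (2.19) and Plac8 (1.44) passed higher, the last not without PSp mouse 1 (adjusted p = 0.126), PSp mouse 2 (0.159) or PCSp mouse 1 (0.0512). Nkg7 differed little, by 0.40, and was lost without PSp mouse 2 (0.160), PCSp mouse 1 (0.129) or PCSp mouse 2 (0.0796).

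Cells without a granzyme UMI had more of Tcf7, Klf2 and Il7r, genes of naive and memory T cells. All 6 naive and central memory genes tested had fold changes below 0, and 3 passed. Tcf7, the factor TCF-1 of memory and progenitor cells, stood at 108, 119.7, 113 and 217 CPM without and 70.4, 30.1, 35.7 and 52.1 with granzyme (log2 fold change -1.63, SE 0.27, adjusted p = 0.00195), in 4 of 4 mice. Klf2 stood at 333, 311, 287 and 206 against 209, 167, 71.4 and 62.1 CPM (log2 fold change -1.35, SE 0.21, adjusted p = 0.00132), and Il7r at 186, 327, 197 and 362 against 108, 110.3, 92.4 and 201 CPM (log2 fold change -1.10, SE 0.18, adjusted p = 0.00195), each in 4 of 4 mice. The related factor Klf4 was -1.50, and Rgcc, a regulator of the cell cycle, -2.31. The costimulatory receptor Icos (-1.21), the lactate transporter partner Emb (-1.22) and Rora (-1.50) were also lower with granzyme, but Rora did not pass once PSp mouse 2 was left out (adjusted p = 0.0758). In thinned cells Klf2 (adjusted p = 0.433), Il7r (0.165) and Emb (0.0592) did not pass.

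**Figure D3:**
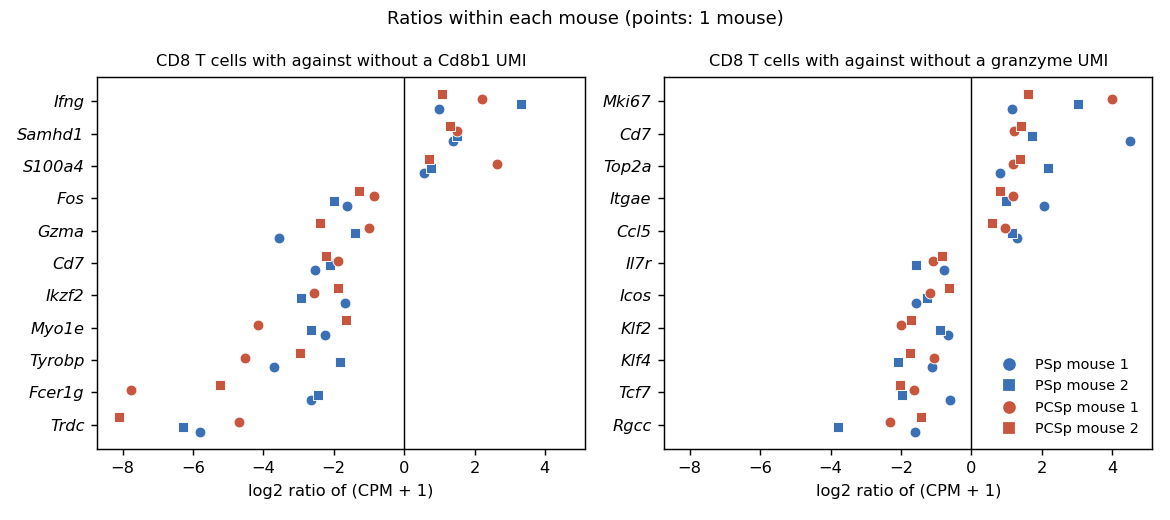
Log2 ratio of CPM + 1 within each mouse, for CD8 T cells with against without a Cd8b1 UMI (left) and with against without a granzyme UMI (right), for genes that passed the test of that panel. Points are mice, circles for mouse 1 and squares for mouse 2, PSp in blue and PCSp in red. All 4 points of each gene shown lie on 1 side of 0, a condition by which most of these genes were chosen. Hist1h2ap, which passed by granzyme with PSp mouse 1 the exception, is not shown.

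Between the genotypes, 14 of 5623 genes tested in CD8 T cells passed (0.249%), 5 higher in PCSp (0.0889%) and 9 lower (0.16%), and 419 had an unadjusted p under 0.05. Cxcl10 and Ifit1, both induced by interferon, 2 Klra receptors and Klf2 were among those that fell, and Gm26740, Reg3b, Igfbp4, Sfrp1 and Igkc rose. DESeq2 called 7 of the 14: Klra5, Gm26740, Cxcl10, Reg3b, Igfbp4, Plac8 and Trbc1. In all 14 both PCSp mice lay on the same side of both PSp mice. With 2 mice a group, the p-values rest on these mice only, and edgeR's estimate of the spread of a gene borrows from other genes.

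Cxcl10, a chemokine that draws CXCR3-bearing T cells, stood at 415, 342, 157 and 179 CPM and was lower in PCSp (log2 fold change -1.23, SE 0.17, adjusted p = 0.0104). Ifit1, an RNA-binding antiviral protein, stood at 161, 207, 77.8 and 70.4 CPM and was lower in PCSp (log2 fold change -1.34, SE 0.20, adjusted p = 0.0106). In epithelial cells of the same tumours Ifit1 stood at 338, 309.6, 174 and 111 CPM, also lower in both PCSp mice, and Cxcl10 at 204, 154, 168 and 99.3 CPM, with overlapping genotypes. Without Cd8b1, PSp mouse 1 alone had Cxcl10 at 1072 CPM, against 88.5, 42.7 and 28.7 in the other 3 mice, while with Cd8b1 the levels were 306, 410.0, 176 and 199 CPM. Ifit3 stood at 152, 238, 97.0 and 73.8 CPM and did not pass (log2 fold change -1.20, SE 0.23, adjusted p = 0.0603), although it passed on leaving out PSp mouse 1 (adjusted p = 7.67e-08) or PCSp mouse 1 (0.00401). Of 24 interferon response genes tested, 1 passed lower, none higher, and 23 had fold changes below 0, with a median of -0.48 against 0.00 over all genes tested. The Ifit1 call was lost under DESeq2 (adjusted p = 0.0569), with at least 2 Cd8a or Cd8b1 UMIs (0.0531) and without marked doublets (0.0692).

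**Figure D4:**
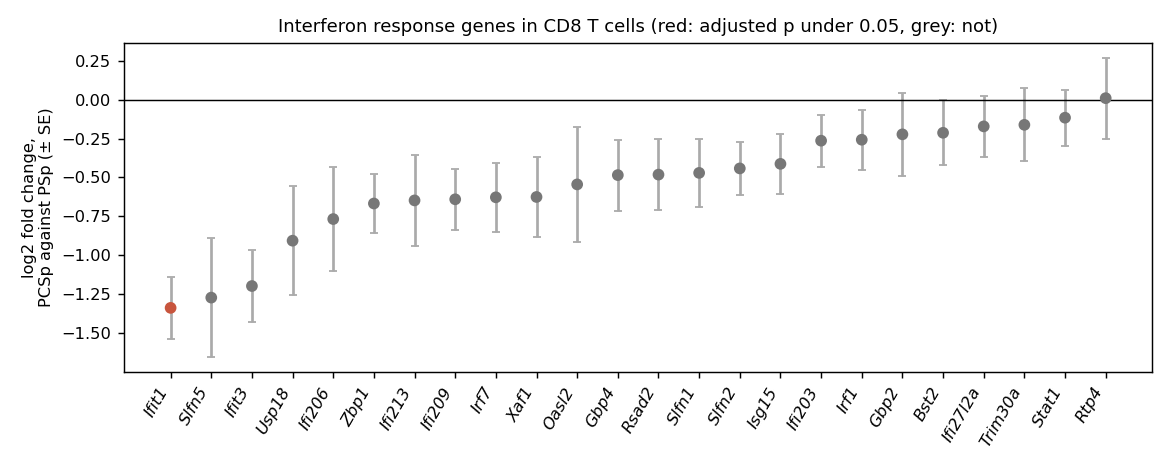
Log2 fold change of PCSp against PSp in CD8 T cells for the 24 interferon response genes tested, with the standard error of the fit as bars, ordered by size. Red marks the gene that passed (Ifit1) and grey those that did not, and 23 of the 24 points lie below 0.

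The sequences upstream of the interferon-induced genes that passed are given with the interferon-stimulated response element, the motif through which these genes are known to be switched on. The 250 bases before the RefSeq start (GRCm38.p6) were searched on both strands for the letters GAAA, any 2 letters and GAAA again, which 978 of 32851 such windows hold (2.98%), and matches are in capitals. Ifit1 (chr19:34640639-34640888, plus strand) has 2 matches, both read from the opposite strand, and Cxcl10 (chr5:92348890-92349139, minus strand) has 1. A match describes letters in the window and is not a measured binding site.
Ifit1: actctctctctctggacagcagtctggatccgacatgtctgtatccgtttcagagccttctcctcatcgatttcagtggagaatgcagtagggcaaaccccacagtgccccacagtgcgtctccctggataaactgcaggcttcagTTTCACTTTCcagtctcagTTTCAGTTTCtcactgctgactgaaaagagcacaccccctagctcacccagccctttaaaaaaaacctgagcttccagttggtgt
Cxcl10: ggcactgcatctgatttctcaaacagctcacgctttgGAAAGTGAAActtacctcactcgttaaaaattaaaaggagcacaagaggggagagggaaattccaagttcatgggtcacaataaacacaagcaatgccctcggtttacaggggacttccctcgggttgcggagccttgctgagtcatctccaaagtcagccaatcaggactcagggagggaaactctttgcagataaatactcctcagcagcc

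Klra5 and Klra7, of the Ly49 family of receptors for MHC class I, fell in PCSp. Klra5 counted 61, 39, 3 and 0 UMIs, a ratio of PSp to PCSp of 56.8 between the CPM values with an exact 95% interval of 18.9 to 280 for counting error (log2 fold change -5.73, SE 0.50, adjusted p = 0.000121). It was the gene of largest fold and stayed past the threshold in each of the 8 alternatives that tested it. In PSp mouse 1 its UMIs lay with and without Cd8b1, at 131 and 70.5 CPM, and in PSp mouse 2 mostly without Cd8b1, at 410 CPM against 5.99. It was at 106, 83.0, 52.3 and 0 CPM in NK cells and 60.9, 77.4, 0 and 21.2 CPM in other T cells. Klra7 stood at 48.2, 47.1, 4.04 and 13.7 CPM (log2 fold change -2.63, SE 0.48, adjusted p = 0.0401), but it did not pass once PCSp mouse 1 was left out (adjusted p = 0.0888) or by DESeq2 (0.386). Reads of Klra genes can be split between near-identical copies, so the 2 are uncertain as single genes.

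Fcer1g, an adaptor that pairs with activating NK receptors, stood at 263, 405, 141 and 77.3 CPM (log2 fold change -1.61, SE 0.27, adjusted p = 0.0236). In cells with Cd8b1 it stood at 149.7, 206, 3.53 and 13.7 CPM, far lower in PCSp, and in cells without Cd8b1 at 945, 1140.0, 974 and 545 CPM, where PCSp mouse 1 lay between the PSp mice. Klf2 stood at 241, 209.7, 110.2 and 106 CPM (log2 fold change -1.10, SE 0.18, adjusted p = 0.0196), and in other T cells at 253, 315, 676 and 356 CPM, where it was higher in both PCSp mice. Without cells holding a Cd4, Trdc or gamma chain constant UMI, its edgeR log2 fold change was -0.53 (adjusted p = 0.765). Epithelial cells also held Klf2 UMIs, as given above with its shares. The part of such RNA in the Klf2 levels of any comparison was not tested. Plac8, a cysteine-rich protein of lymphoid and myeloid cells, stood at 365, 228, 126 and 130.5 CPM (log2 fold change -1.26, SE 0.21, adjusted p = 0.0236). Trbc1, a constant region of the T cell receptor beta chain, stood at 825, 718, 447 and 481 CPM (log2 fold change -0.78, SE 0.13, adjusted p = 0.0238), while its near-identical copy Trbc2 stood at 1276, 1039, 1256 and 1169 CPM with no such order, and reads may be split between them. Trim12a, of an antiviral Trim family, stood at 112, 127, 47.5 and 53.2 CPM (log2 fold change -1.30, SE 0.22, adjusted p = 0.0236). It was lower in both PCSp mice in every class, at 56.7, 54.8, 23.8 and 18.2 CPM in epithelial cells, 80.5, 110.4, 36.0 and 42.4 in other T cells and 127, 107, 56.7 and 33.4 in NK cells. By DESeq2, Fcer1g (adjusted p = 0.525), Klf2 (0.129) and Trim12a (0.449) did not pass, and Trim12a did not without PCSp mouse 1 (0.0696) either.

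Gm26740, annotated as an antisense transcript on the minus strand of chr10:22187013-22302835 (GRCm38), rose in PCSp. It stood at 6.02, 4.71, 102 and 132 CPM in CD8 T cells (log2 fold change 4.32, SE 0.39, adjusted p = 0.000121), at 11.8, 6.59, 232 and 284 CPM in other T cells and at 0, 0, 65.4 and 100.1 CPM in NK cells, high in the same mice, and at no more than 0.247 CPM in epithelial cells. It overlaps H60b and Raet1e, ligands of the receptor NKG2D on the opposite strand, which stood at 12.0, 4.71, 3.03 and 0 CPM and at 0 in CD8 T cells. The strand setting of the counting is not given in the sources used here, so reads of such a pair cannot be told apart with certainty.

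The other 4 genes that rose stood at higher levels in other cells of these tumours than in CD8 T cells. Reg3b, a secreted lectin of epithelial defence, stood at 6.02, 7.07, 61.6 and 130.5 CPM in CD8 T cells (log2 fold change 3.74, SE 0.53, adjusted p = 0.0104) and at 847, 694, 2016 and 3968 CPM in epithelial cells, higher in both PCSp mice in each. Igfbp4, which binds insulin-like growth factors, was the only gene of the naive and central memory list to pass higher. It stood at 14.0, 28.3, 127 and 87.6 CPM (log2 fold change 2.36, SE 0.34, adjusted p = 0.0104) and at 1955, 1942, 1998 and 2947 CPM in a fibroblast gate. It did not pass with marked doublets left out (adjusted p = 0.202). Sfrp1, a secreted Wnt inhibitor, counted 1, 2, 59 and 19 UMIs in CD8 T cells, a ratio of 15.3 with an exact interval of 5.03 to 75.6 for counting error (log2 fold change 3.77, SE 0.61, adjusted p = 0.0196). It stood at 939, 682, 929 and 1803 CPM in fibroblasts, but it did not pass once PCSp mouse 1 was left out (adjusted p = 0.583) or by DESeq2 (0.219). Igkc, the kappa light chain constant region, stood at 22.1, 2.36, 78.8 and 82.4 CPM (log2 fold change 2.58, SE 0.46, adjusted p = 0.0308) and at 1228, 257, 1416 and 765 CPM over all kept cells, with the B cell gene Ms4a1 at 0 in CD8 T cells. Its fold change ranged from 1.69 to 4.93 over the alternatives, and it did not pass by DESeq2 (adjusted p = 0.999). Summed epithelial markers in CD8 T cells were 303, 367, 424 and 397 CPM (10 genes, none at 0), B and plasma cell markers 80.3, 73.0, 137 and 120 CPM, and fibroblast markers 138, 1510, 1132 and 390 CPM, the last with overlapping genotypes. The part of RNA from those cells in these 4 differences was not tested.

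**Figure D5:**
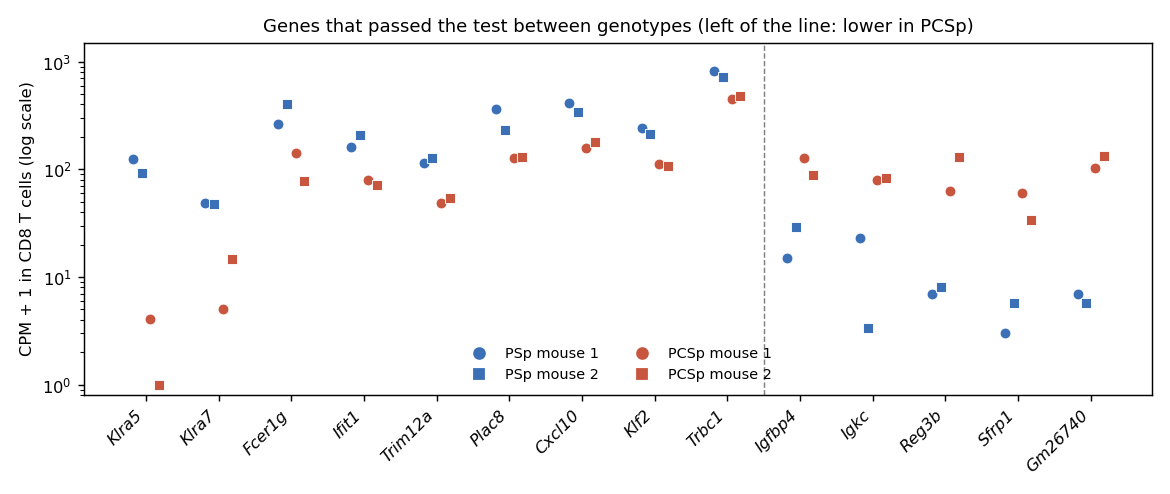
Levels in CD8 T cells of the 14 genes that passed between genotypes, as CPM + 1 on a log axis, ordered by fold change, with genes lower in PCSp left of the dashed line. Points are mice, circles for mouse 1 and squares for mouse 2, PSp in blue and PCSp in red, and in every gene the 2 red points lie on 1 side of the 2 blue points.

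These 14 calls changed with which cells, and how many of their UMIs, were counted. With at least 2 Cd8a or Cd8b1 UMIs, 3 of the 13 genes still tested passed (Klra5, Gm26740 and Reg3b). Cxcl10, Ifit1, Klf2, Fcer1g, Trim12a, Plac8, Trbc1, Igkc and Klra7 kept their direction and lay just over the threshold, each at adjusted p = 0.0531. Igfbp4 lay at 0.704. Without the 298 cells that held a Cd4, Trdc or gamma chain constant UMI, 4 of 12 passed (Gm26740, Reg3b, Igfbp4 and Cxcl10) and the Plac8 fold change turned to 0.031. Of the others, Ifit1 (-1.31), Fcer1g (-1.67), Trbc1 (-0.68), Igkc (2.17) and Sfrp1 (4.16) kept log2 fold changes near the main ones. Klf2 (-0.53) and Trim12a (-0.85) lay nearer to no change. That setting tested 3145 genes against 5623 in the main one. The parts of fewer cells and of cell type in the lost calls were not tested. With cells thinned to 1000 UMIs none of the 8 still tested passed, and 101 of 1778 genes had an unadjusted p under 0.05.

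Effector and exhaustion genes gave no call between genotypes, by edgeR or by DESeq2, whose 7 calls were all among the 14. Over all 5623 genes tested by edgeR, 419 had an unadjusted p under 0.05, to be set beside the list counts here. None of 12 cytotoxic granule genes passed (2 at an unadjusted p under 0.05), with a median log2 fold change of 0.00, and Gzmb had -0.43 (SE 0.16, adjusted p = 0.561). Without PSp mouse 1, Gzmb passed lower in PCSp (-0.71, adjusted p = 0.000327). None of 11 inhibitory receptor and exhaustion genes passed (6 at an unadjusted p under 0.05), 9 of them above 0 with a median of 0.37, and Pdcd1 had 0.60 (SE 0.16, adjusted p = 0.278), higher in both PCSp mice. None of 17 cell cycle genes passed (8 at an unadjusted p under 0.05), 14 of them below 0 with a median of -0.37, and none of 17 immediate early and stress genes (6 at an unadjusted p under 0.05), 15 below 0 with a median of -0.26. None of 10 cholesterol genes (2 at an unadjusted p under 0.05), of 9 steroid response genes (0) or of 12 MHC class I genes (0) passed. Across all lists, the calls were Ifit1, Trbc1, Klf2, Igfbp4, Fcer1g, Klra7 and Igkc.

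Whether a genotype difference was particular to CD8 T cells was tested as an interaction with the difference in other T cells of the same mice. None of 6620 genes passed (0.0%), by edgeR's quasi-likelihood F-test, and 419 had an unadjusted p under 0.05. With no filter on low counts 72 passed, and DESeq2 was not run for this test. The nearest in the filtered test was Fos, an immediate early gene, at 417, 497, 467 and 180.3 CPM in CD8 T cells and 737, 506, 2089 and 1108 CPM in other T cells (log2 fold change -1.93, SE 0.26, adjusted p = 0.0658). Klf2, lower with PCSp in CD8 T cells and higher in other T cells, had -1.89 (adjusted p = 0.102), Pdcd1 had 1.57 (adjusted p = 0.132) and Cd74 had 1.84 (adjusted p = 0.0792). With no filter all 4 passed, with adjusted p = 7.9e-14 for Fos, 7.05e-08 for Klf2, 0.000356 for Pdcd1 and 1.76e-06 for Cd74, so these calls depended on the filter.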

How the data were processed

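Whole prostate tumours of 4 castrated mice were dissociated with collagenase and trypsin and sequenced with the 10x Chromium 3' v3 kit, per the labels' protocols. The files that the authors deposited give each cell's UMI count for every gene, made with Cell Ranger 6.1.2 on mm10, per the submitters' processing notes. Groups came from the sample labels. Nothing in them pairs mice across genotypes.

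Here, cells were filtered and chosen as the report states. Counts were summed per mouse and class. Genotypes were compared with edgeR 4.0.16 in R 4.3.3 (quasi-likelihood F-test, Benjamini-Hochberg adjustment, genes of low counts filtered by edgeR's default rule), and classes within mice with the mouse as a block. With 2 mice per genotype, p-values rest on these mice only, with the spread of each gene moderated across genes by edgeR. Shares were compared by exact permutation. CD8 T cells summed to 498416, 424509, 989460 and 582465 UMIs in the 4 mice. Intervals are exact binomial or Poisson ones for counting error only. Doublets were not removed in the main analysis. An alternative left out the highest Scrublet scores, 0.8% of barcodes per 1000 barcodes in a library, which marked 3, 6, 9 and 5 CD8 T cells.

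Alternatives were DESeq2 1.42.0, no filter on low counts, each mouse left out, stricter cell rules, thinning to 1000 UMIs, and other reference cells. Gene positions are from GENCODE M21 on GRCm38, in which 32158 of 32285 gene identifiers were found. Named genes were Chd1, the 10 largest and 10 smallest fold changes per comparison among passing genes whose mean reached 50 CPM with 1 direction in every mouse, each direction filled to 5 by smallest p, the 3 genes of smallest p from each of 26 gene lists, and list members for their levels. The cells, lists and rules were chosen with earlier results of these data known. Some genes and 1 allele are not reported here.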

Additional observations from a re-analysis of the deposited data

How the results depend on the processing

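The number of genes called changed with the settings. Between genotypes 14 genes passed, 7 with DESeq2, 73 with no filter on low counts, 3 with at least 2 Cd8a or Cd8b1 UMIs, 5 without cells holding a Cd4, Trdc or gamma chain constant UMI, 0 in thinned cells (101 at an unadjusted p under 0.05 by edgeR), and 25 to 91 with 1 mouse left out (91 without PSp mouse 1, 75 without PSp mouse 2, 47 without PCSp mouse 1, 25 without PCSp mouse 2). Leaving out a mouse leaves 1 in its group, assumed to vary like the other genotype. Against other T cells 801 passed, 421 with DESeq2, 1569 with no filter, 322 thinned, 414 against Cd4-positive cells and 438 to 913 with 1 mouse left out (438 without PCSp mouse 1, 524 without PCSp mouse 2). Against NK cells 431 passed, 207 with DESeq2, 682 with no filter and 83 thinned. By Cd8b1 39 passed, 16 with DESeq2, 225 with no filter, 2 thinned and 15 to 44 with 1 mouse left out. For Cd8b1 the thinned cells were split anew on their thinned counts. By granzyme 35 passed, 102 with no filter, 7 thinned and 17 to 38 with 1 mouse left out. DESeq2 gave an adjusted p to only 273 of these 3071 genes and called 24, of which 5 were among the 35. The interaction gave 72 calls with no filter. Fewer genes were tested in thinned cells and more with no filter, and fewer had an adjusted p by granzyme with DESeq2. The cause of the other changes was not tested. At full depth the genotype differences in shares of cells turned to -5.51 percentage points for Gzmb and -0.789 for Itgae. The Plac8 genotype fold change turned to 0.031 without cells holding those receptor UMIs, and the Gzmb difference by Cd8b1 to 0.0091 in thinned cells. Of the values for single genes under an alternative, 828 kept direction and side of the threshold, 108 lost the call, 13 gained it and 2 reversed. These values pool all comparisons, and a gene not called in the main test counted as kept where it still did not pass. Among genotype calls, Ifit1 lost its call in 5 alternatives and Klf2, Fcer1g and Igkc in 4 each, while Klra5 lost it in 0. A requirement of 3 Cd3 UMIs was added after seeing the data. No paired analysis was possible because the mice were numbered in accession order only, and no label ties a number to a litter, day or batch across genotypes. The depth of PCSp mouse 2 and the 76 cells without Cd8b1 limit what low genes can show.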
